A study of Homo sapiens with 8 samples.

Results

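The transcription factor gene ATF4 and 6 genes of amino acid metabolism, ASNS, PSAT1, ALDH18A1, ALDH1L2, GPT2 and AARS1, were followed by acRIP, in which an antibody to the RNA mark N4-acetylcytidine (ac4C) pulls down RNA fragments, in 2 human osteosarcoma cell lines. Peak intervals were chosen by overlap with the GRCh38 spans of the 7 genes, which gave 21 of the 31395 intervals in the deposited tables, and the 7 genes stand among 9079 genes with an assigned peak. The groups are 143B labelled sgNAT10 (NAT10 knockout), 143B NC (control), HOS labelled sgNAT10 and HOS NC, with 1 acRIP library each. 143B was derived from HOS, so the lines share their origin. All 4 libraries come from poly(A)-selected, fragmented RNA, and nothing in the labels says whether the knockout cells are a clone or a pool. The labels list 8 samples, of which the input libraries were not used here, so a value after immunoprecipitation mixes RNA level with enrichment. With 1 library per group there is no test within a line.

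ATF4 is the transcription factor made when amino acids run short or the endoplasmic reticulum is stressed: kinases phosphorylate the translation factor eIF2, bulk protein synthesis slows, and upstream reading frames let ribosomes reach the ATF4 frame. It pairs with C/EBP proteins on composite DNA elements and switches on genes for amino acid synthesis, amino acid import and tRNA charging. ASNS (asparagine synthetase) makes asparagine from aspartate and glutamine. PSAT1 (phosphoserine aminotransferase) catalyses a step of serine synthesis, ALDH18A1 (pyrroline-5-carboxylate synthase) begins proline synthesis from glutamate, and GPT2 is the mitochondrial alanine aminotransferase. ALDH1L2 is a mitochondrial enzyme of folate one-carbon metabolism, and AARS1 charges tRNA with alanine. NAT10 is the acetyltransferase that writes ac4C into RNA.

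The composite element that ATF4 binds was searched as TGATGNAA on both strands in the promoter windows of RefSeq (GRCh38.p14), which run from 250 bases before to 50 bases after a start site. Of 27305 genes with a window, 1217 (4.46%) held it. Windows were available for 5 of the 7 genes, and those of ASNS and AARS1 held a match. They are shown because one of the genes was higher in both libraries labelled sgNAT10 and the other differed little. The 250 bases before the start are given on the gene's strand, and capitals mark the match, which lay 68 bases before the ASNS start and 187 bases before the AARS1 start.
ASNS, chr7:97872409-97872658, minus strand: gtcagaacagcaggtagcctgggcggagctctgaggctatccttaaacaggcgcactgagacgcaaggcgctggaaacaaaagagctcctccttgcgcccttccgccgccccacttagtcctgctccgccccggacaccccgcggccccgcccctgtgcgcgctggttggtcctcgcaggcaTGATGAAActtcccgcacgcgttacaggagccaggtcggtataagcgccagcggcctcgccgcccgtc
AARS1, chr16:70289507-70289756, minus strand: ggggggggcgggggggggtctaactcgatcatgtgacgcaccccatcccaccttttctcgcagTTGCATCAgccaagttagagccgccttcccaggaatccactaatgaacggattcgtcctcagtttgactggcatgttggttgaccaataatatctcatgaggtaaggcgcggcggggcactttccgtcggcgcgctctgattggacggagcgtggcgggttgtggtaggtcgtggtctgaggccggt
The AARS1 match is the reverse complement of the element. A second ASNS start in the table had no match in its window, and the windows of ATF4, PSAT1 and ALDH18A1 held none, which says only that these letters are absent there.

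Other genes named in the results carried the same element, which was found in the windows of 22 of 120 pathway genes beside the 7 (18.3%). The 24 or 21 bases around 6 of these matches are shown because these genes serve as points of comparison, again with the match in capitals, read on the strand of the gene, where the element may appear as its reverse complement.
MARS1, chr12:57488056-57488079, plus strand: ggttccggTTGCATCAgcgaggga
SLC3A2, chr11:62881728-62881748, plus strand: aggactccTTACATCAgctcc
GARS1, chr7:30594837-30594860, plus strand: cgcggcgaTTTCATCAtgctccga
TARS1, chr5:33440959-33440982, plus strand: cctttcgaTTGCATCAgctggtcc
SLC1A5, chr19:46784896-46784919, minus strand: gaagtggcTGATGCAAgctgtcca
SLC7A1, chr13:29595666-29595689, minus strand: cgcactgcTGATGAAAcctggcgc
Among listed genes with both a window and a peak, the 16 with the element had median log2 shifts of -0.24 in 143B and -0.37 in HOS. The 46 without it had 0.25 and -0.47. The 6 genes shown were all lower in 143B, whereas 7 of the 16 were higher there. Among those 7 was BCAT1 (0.89 in 143B), which is also named in the results. A match is a string of letters and not evidence of binding. The share of 18.3% is tied to the choice of genes, since some were listed as regulated by ATF4. Among those were amino acid transporters (5 of 10 with the element) and other ATF4 targets and stress genes (7 of 25, ASNS included).

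Values are raw counts and CPM, which are counts scaled to the library total times its TMM factor. A shift is the log2 CPM in the library labelled sgNAT10 minus that in NC of the same line, with a 95% interval for counting error only. Totals over all peaks were 20107718 to 24785306 counts. The 143B library labelled sgNAT10 stood apart, with Spearman correlations of 0.60 to 0.70 with the others over 24467 tested peaks, against 0.82 to 0.88 among the other 3. The start of chromosome 21, where ribosomal RNA genes lie, took 39.6% of counts in 143B labelled sgNAT10 and 48.8% in 143B NC, and 49.0% in HOS labelled sgNAT10 and 70.4% in HOS NC. The NAT10 peak went against the label in 143B: 130 counts in 143B labelled sgNAT10 against 65 in 143B NC, a shift of 0.50 (0.06 to 0.95). In HOS the NAT10 peak had 63 counts in the library labelled sgNAT10 against 180 in NC, a shift of -1.85 (-2.30 to -1.44). Every 143B shift therefore rests on a library that stands apart and whose label the NAT10 peak goes against, and the HOS shifts are the values without it. The NAT10 peak was read without input, so by itself it cannot show whether NAT10 was knocked out in either line. Of 10 mesenchymal and osteoblast markers, 5 had a peak (VIM, SPARC, RUNX2, SP7 and ALPL), with 273 to 993 CPM summed per library. KRT8, KRT18 and CDH1 of 5 epithelial markers gave 64.0 to 121 CPM, PTPRC and ITGAM of 4 blood markers 2.43 to 3.61 CPM, and KDR of 3 endothelial markers 37.0 CPM in HOS labelled sgNAT10 and 0.994 to 6.51 CPM in the other 3. Among the markers with no assigned peak were COL1A1, COL1A2, BGLAP, IBSP, SPP1, EPCAM, KRT19, CD3E, PECAM1 and CDH5. The part of these values in the results was not tested.

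**Figure D1:**
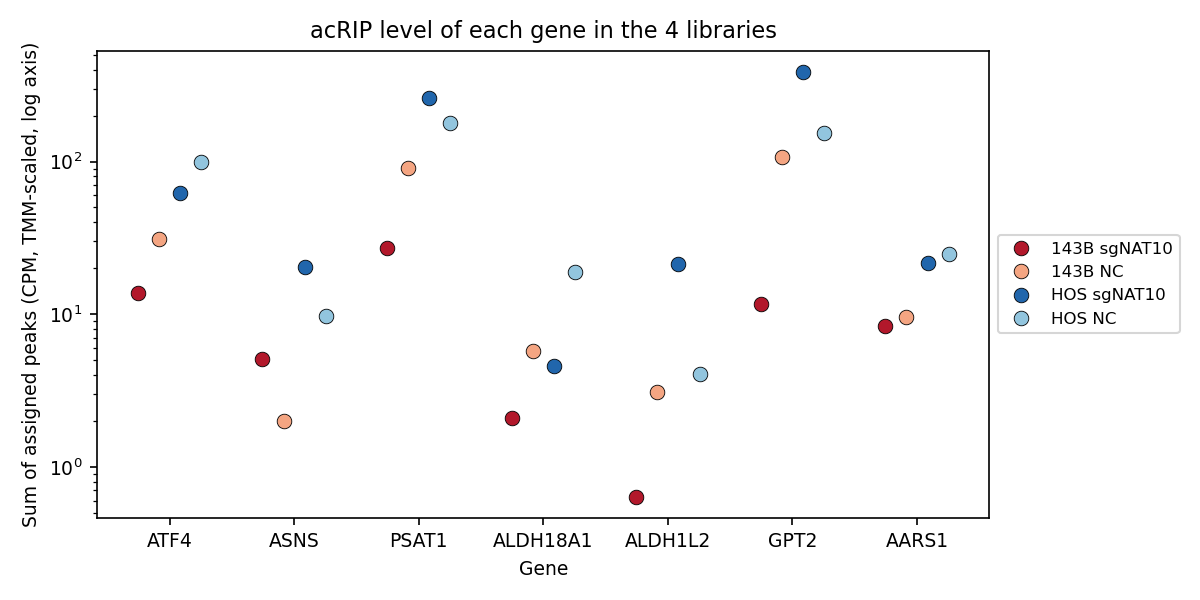
The sum of assigned peaks of each gene (CPM, log axis) in the 4 acRIP libraries, 1 point per library, without error bars. Each gene is to be read across its own 4 points, since peak lengths differ between genes: ASNS is higher in both libraries labelled sgNAT10, and ALDH18A1 lower in both.

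ATF4 (Gene ID 468, chromosome 22, 39520559 to 39522686, plus strand) had 1 peak, chr22:39521804-39521916, 770 bp before the 3′ end of its span. It held 388 counts in 143B labelled sgNAT10 and 624 in 143B NC, 13.8 against 31.3 CPM. In HOS it held 1436 counts in the library labelled sgNAT10 and 1801 in NC, 62.2 against 99.4 CPM. The shift was -1.18 (-1.37 to -0.998) in 143B and -0.68 (-0.78 to -0.58) in HOS, so the peak was lower in both. With library totals alone the HOS shift was -0.10. Per kilobase of peak, ATF4 had the highest level of the 21 peaks in each library, from 123 CPM per kb in 143B labelled sgNAT10 to 888 in HOS NC.

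ASNS (Gene ID 440, chromosome 7, 97851677 to 97928441, minus strand) had 1 peak, chr7:97852188-97852345, 511 bp from the 3′ end, which also overlaps the readthrough gene CZ1P-ASNS. It held 144 counts in 143B labelled sgNAT10 against 40 in 143B NC, or 5.11 against 2.0 CPM. In HOS it held 468 counts in the library labelled sgNAT10 against 175 in NC, or 20.3 against 9.66 CPM. ASNS thus ran opposite to ATF4: its shift was 1.33 (0.84 to 1.89) in 143B and 1.06 (0.81 to 1.33) in HOS. In HOS, 22.8% of tested peaks had a larger shift, and in 143B 12.6% did. With TMM it was the only one of the 21 peaks at least 2-fold higher in both lines, where 5.78% of all tested peaks were. That depended on the scaling. The HOS shift of ASNS fell below 2-fold with DESeq2-type size factors (0.91), upper quartile factors (0.97) and totals without the ribosomal RNA region (0.86). With library totals alone the last peaks of PSAT1 (1.77 in 143B and 1.54 in HOS) and GPT2 (1.36 and 1.35) passed it too.

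Both genes have a single peak, and the ratio of their counts within a library is free of the scaling, as any such ratio is. ASNS over ATF4 was 0.371 (0.304 to 0.450) in 143B labelled sgNAT10 and 0.064 (0.045 to 0.088) in 143B NC. It was 0.326 (0.293 to 0.362) in HOS labelled sgNAT10 and 0.097 (0.083 to 0.114) in HOS NC. The ratio was thus 5.79 times as high in 143B labelled sgNAT10 as in 143B NC, and 3.35 times as high in HOS labelled sgNAT10 as in HOS NC. Set against AARS1, ASNS was 0.608 in 143B labelled sgNAT10 and 0.209 in 143B NC, and 0.932 in HOS labelled sgNAT10 and 0.391 in HOS NC. AARS1 over ATF4 was also higher with the sgNAT10 label, at 0.611 against 0.306 in 143B and 0.350 against 0.249 in HOS. The ASNS over ATF4 ratio thus holds both a higher ASNS and a lower ATF4 value. These ratios carry counting intervals only, and no replicate bears on them.

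**Figure D2:**
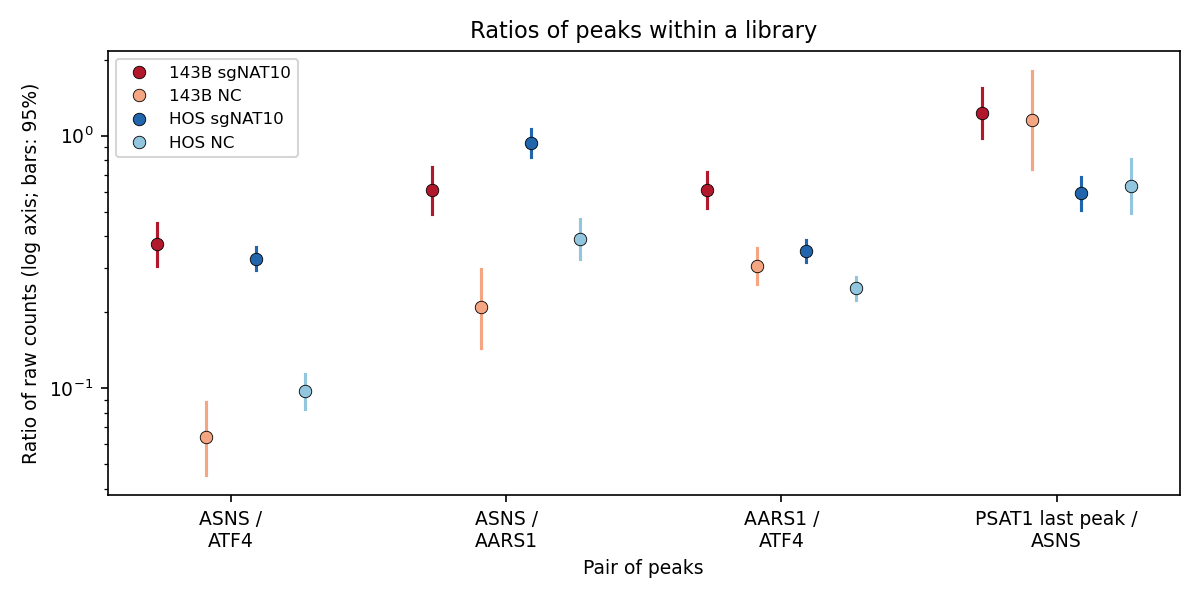
Ratios of raw counts of 2 peaks in the same library (log axis, bars are 95% intervals for counting error). ASNS over ATF4, ASNS over AARS1 and AARS1 over ATF4 are higher in the library labelled sgNAT10 of each line. The last PSAT1 peak over ASNS is at 1.23 and 1.15 in 143B and at 0.592 and 0.634 in HOS.

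AARS1 (Gene ID 16, chromosome 16, 70252298 to 70289506, minus strand) had 1 peak, chr16:70252457-70252760, 159 bp from the 3′ end. Its counts were 237 in 143B labelled sgNAT10 against 191 in 143B NC, and 502 in HOS labelled sgNAT10 against 448 in HOS NC. In CPM these were 8.41 against 9.57 and 21.7 against 24.7. The shift was -0.19 in each line (-0.47 to 0.10 in 143B, and -0.37 to -1.1e-05 in HOS), the smallest of the 7 gene sums in both. With library totals alone it turned to 0.16 in 143B and 0.39 in HOS, and with upper quartile factors to 0.023 in 143B.

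ALDH18A1 (Gene ID 5832, chromosome 10, 95605941 to 95656711, minus strand) had 2 peaks and was the only gene of the 7 at least 2-fold lower in both lines. The peak at chr10:95606594-95606853 held 32 counts in 143B labelled sgNAT10 against 75 in 143B NC, and 61 in HOS labelled sgNAT10 against 206 in HOS NC. Its shifts were -1.69 (-2.37 to -1.11) and -2.09 (-2.54 to -1.69). The peak at chr10:95613837-95613975 held 27 against 39 counts in 143B and 45 against 136 in HOS, shifts of -0.998 (-1.79 to -0.28) and -1.92 (-2.47 to -1.45). In HOS, 0.613% and 0.895% of tested peaks had lower shifts than these. Of the 21 peaks, 1 was at least 2-fold lower in both lines, the first ALDH18A1 peak, where 1.58% of all tested peaks were. Summed over both peaks the gene had 2.09 CPM in 143B labelled sgNAT10 and 5.71 in 143B NC, and 4.59 in HOS labelled sgNAT10 and 18.9 in HOS NC.

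PSAT1 (Gene ID 29968, chromosome 9, 78297125 to 78330093, plus strand) had 5 peaks that did not move alike. The widest, chr9:78319223-78321676 (2453 bp), held 279 counts in 143B labelled sgNAT10 against 1267 in 143B NC, and 3949 in HOS labelled sgNAT10 against 1844 in HOS NC. Its shifts were -2.68 (-2.87 to -2.49) in 143B and 0.75 (0.67 to 0.83) in HOS, in opposite directions. The peak 48 bp from the 3′ end, chr9:78329906-78330045, held 177 counts in 143B labelled sgNAT10 against 46 in 143B NC, and 277 in HOS labelled sgNAT10 against 111 in HOS NC. That last peak was higher in both lines, by 1.43 (0.97 to 1.95) and 0.96 (0.65 to 1.3). The other 3 peaks had 143B shifts of -1.19 to -1.14 and HOS shifts of -0.22 to 0.35.

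The last peak of PSAT1 held 23.3% of the gene's counts in 143B labelled sgNAT10 (95% Wilson interval 20.4 to 26.4) and 2.56% in 143B NC (1.92 to 3.39). In HOS it held 4.59% (4.09 to 5.15) in the library labelled sgNAT10 and 3.45% (2.87 to 4.13) in NC. The widest peak held 36.7% in 143B labelled sgNAT10 against 70.4% in 143B NC, and 65.4% in HOS labelled sgNAT10 against 57.2% in HOS NC. The shares of the last and the widest peak in 143B labelled sgNAT10 thus stood apart from the other libraries, in a measure that no scaling touches. The share intervals of the remaining PSAT1 peaks in that library overlapped those of HOS NC but lay above those of 143B NC. Along the chromosome, peak 1 held 11.6% (9.48 to 14.0) against 7.67% (6.53 to 8.99) in 143B NC. Peak 3 held 12.1% (9.96 to 14.6) against 8.34% (7.15 to 9.71), and peak 4 held 16.4% (14.0 to 19.2) against 11.0% (9.64 to 12.5). The intervals of the ratio of the last PSAT1 peak to the ASNS peak overlapped between genotypes in each line. It was 1.23 (0.98 to 1.54) in 143B labelled sgNAT10 and 1.15 (0.74 to 1.80) in 143B NC, and 0.592 (0.508 to 0.688) in HOS labelled sgNAT10 and 0.634 (0.495 to 0.809) in HOS NC.

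GPT2 (Gene ID 84706, chromosome 16, 46884362 to 46931289) had 10 peaks, numbered 1 to 10 along the chromosome, most of which differed in opposite directions in the 2 lines. Peaks 1 to 9 were all at least 2-fold lower in 143B (median -2.32, from -3.64 to -1.76) and all higher in HOS (median 1.32, from 0.74 to 1.85). Peak 7, chr16:46913560-46917310 (3750 bp), held 204 counts in 143B labelled sgNAT10 against 1809 in 143B NC, and 6849 in HOS labelled sgNAT10 against 2148 in HOS NC. It had the largest share of the gene's counts in every library, 61.6% in 143B labelled sgNAT10 and 76.8% to 84.2% in the other 3. The smaller internal peaks behaved in the same way on few counts: peak 9 held 16 against 60 in 143B and 388 against 84 in HOS. Peak 10, chr16:46931069-46931230, 59 bp from the upper end of the span, was higher in both lines. It held 36 counts in 143B labelled sgNAT10 against 12 in 143B NC, and 86 in HOS labelled sgNAT10 against 39 in HOS NC, shifts of 1.04 (0.11 to 2.16) and 0.78 (0.23 to 1.37). Peak 10 made up 10.9% (7.96 to 14.7) of GPT2 counts in 143B labelled sgNAT10 and 0.559% to 1.40% in the other 3 libraries.

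**Figure D3:**
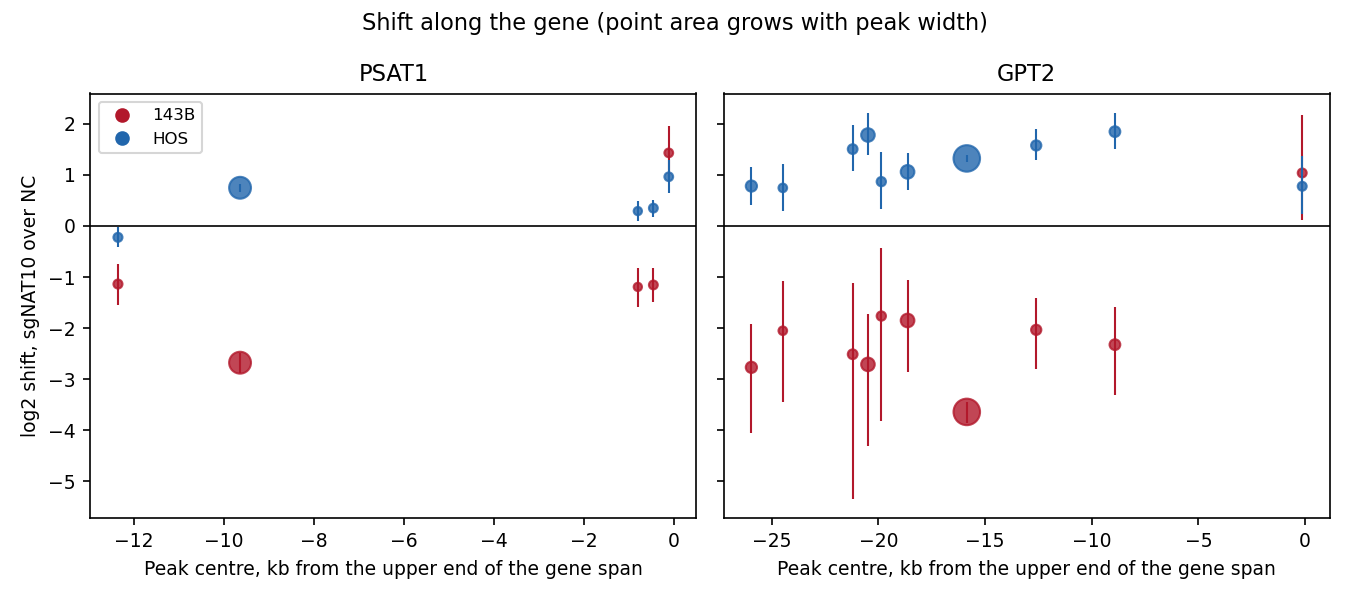
The log2 shift of each PSAT1 and GPT2 peak (sgNAT10 over NC, bars are 95% counting intervals) against the distance of its centre from the upper end of the gene span in kb. In 143B the last peak of each gene lies above 0 and the others below, while in HOS 14 of the 15 peaks lie above 0.

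The 143B difference between end and interior was shared with peaks of other genes. Among peaks of protein-coding genes averaging at least 50 counts, 1293 lay within 500 bp of a gene end, and 72.5% of those were higher in 143B labelled sgNAT10 (median shift 0.69) and 18.3% higher in HOS labelled sgNAT10 (median -0.60). Of 5067 such peaks farther from the ends, 26.1% and 49.4% were higher, with medians of -0.89 and -0.02. Of the 1293 near an end, 390 were at least 2-fold higher in 143B and 32 in HOS. Of the 4 member peaks within 500 bp of an end, 2 were higher in 143B and 3 in HOS. These 4 include GPT2 peak 10, which averaged 43.25 counts, below the 50 set for the class above. Either end of a gene span counted as an end, so the class mixes 5′ and 3′ ends. The ASNS peak, 511 bp from its end, fell just outside this class and was counted with the farther peaks. The wide peaks of PSAT1 and GPT2 also had company: of 383 protein-coding peaks spanning 1000 bp or more, 9.92% lay above NC in 143B and 94.3% did so in HOS. Exon positions were not in the gene table, so the peaks could not be placed in exons or introns, and the part of peak width or position in the shifts was not tested.

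ALDH1L2 (Gene ID 160428, chromosome 12, 105019790 to 105084458) had 1 peak, chr12:105020696-105020994, and the highest HOS shift of the 21. It held 18 counts in 143B labelled sgNAT10 against 62 in 143B NC, or 0.638 against 3.11 CPM. In HOS it held 495 counts in the library labelled sgNAT10 against 73 in NC, or 21.4 against 4.03 CPM. The shift was -2.21 (-3.13 to -1.51) in 143B and 2.40 (2.05 to 2.79) in HOS, where 4.59% of tested peaks had a larger one. The NC libraries of the lines were close for this peak, HOS over 143B at 0.38 (-0.13 to 0.89), and the libraries labelled sgNAT10 were not.

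**Figure D4:**
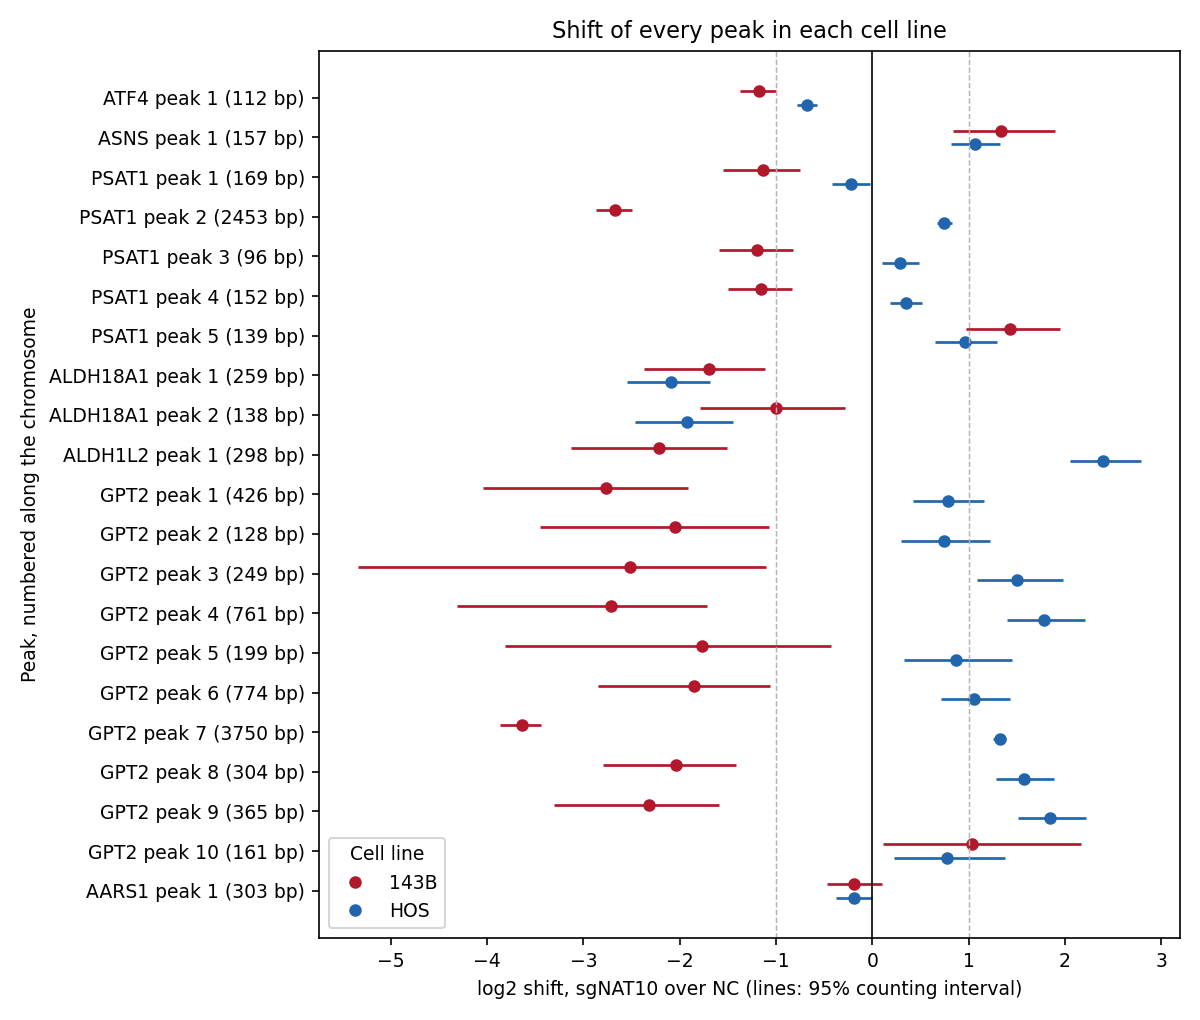
The log2 shift (sgNAT10 over NC) of each of the 21 peaks in 143B and HOS, with 95% intervals for counting error and dashed lines at 2-fold. ASNS and the last peaks of PSAT1 and GPT2 are above 0 in both lines, ATF4, ALDH18A1, AARS1 and the first PSAT1 peak are below 0 in both, and the other 13 lie on opposite sides.

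Over the 21 peaks, the median shift was -1.76 in 143B and 0.78 in HOS, beside 0.05 and 0.31 over all tested peaks. In 143B, 3 were at least 2-fold higher and 16 at least 2-fold lower, where 20.2% and 21.4% of all tested peaks were. In HOS, 8 were at least 2-fold higher and 2 at least 2-fold lower, where the shares of all tested peaks were 24.3% and 8.61%. GPT2 supplies 10 of the 21 peaks, which lie in 1 gene span and are not taken as separate measurements. Lower in 143B and higher in HOS were 13 peaks, from GPT2 (9), PSAT1 (3) and ALDH1L2 (1), where 29.2% of all tested peaks were, and 7 of them by 2-fold or more in each line (background 6.21%). Higher in both were 3 (background 34.1%), lower in both 5 (background 19.2%), and 0 combined a higher 143B value with a lower HOS value (background 17.4%). All 21 peaks passed the filter on low counts.

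Between the control libraries, HOS NC was above 143B NC at 21 of 21 peaks, where 44.7% of all tested peaks were, by 1.3-fold for ALDH1L2 to 4.82-fold for ASNS. With library totals alone it was above at 19 of 21, beside 31.9% of all tested peaks. For ATF4 the log2 difference was 1.67 (1.54 to 1.80), for AARS1 1.37 (1.12 to 1.62) and for ASNS 2.27 (1.77 to 2.80). The interval of ALDH1L2 included 0. These are single libraries of 2 lines, and line and library cannot be told apart.

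Across lines no member passed the edgeR quasi-likelihood test with cell line as a block. The count was 0 of 21, beside 0 of 24467 peaks (0%, with 944 at an unadjusted p under 0.05), and 1 of 21 had an unadjusted p under 0.05, beside 3.86% of all peaks. That peak was the first of ALDH18A1, with a log2 fold change of -1.92 (SE 0.87, edgeR adjusted p = 0.981) and lower values in 2 of 2 lines. ASNS had 1.21 (SE 0.86, edgeR adjusted p = 0.981, higher in 2 of 2 lines) and ATF4 -0.93 (SE 0.73, edgeR adjusted p = 0.981, lower in 2 of 2 lines). On gene sums edgeR also called 0 of 7, beside 0 of 8048 genes (0%, with 306 at an unadjusted p under 0.05). DESeq2 called 0 peaks (500 unadjusted) and 0 gene sums (202), and limma-trend 0 peaks (1089) and 0 gene sums (361). The design has 1 residual degree of freedom.

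The wider pathway was described from 8 lists of genes, counted by the sums of their peaks. Of 70 listed genes with a peak beside the 7, 45 were higher and 25 lower in 143B labelled sgNAT10 (median 0.39), and 19 were higher and 51 lower in HOS labelled sgNAT10 (median -0.47). Of all 6758 protein-coding genes, 3831 were higher and 2922 lower in 143B (median 0.20), and 3133 higher and 3610 lower in HOS (median -0.09). Of the 4099 averaging at least 50 counts, 2046 were higher and 2053 lower in 143B (median -0.004). In HOS, 1658 of them were higher and 2441 lower (median -0.21). The counts per list below are to be read beside these. With library totals alone, which raises the HOS shifts, the HOS medians of 4 lists turned above 0: cytosolic synthetases (0.23), mitochondrial synthetases (0.0068), transporters (0.079) and eIF2 signalling (0.096). The HOS median of other ATF4 targets turned below 0 with DESeq2-type size factors (-0.065) and upper quartile factors (-0.0032). Their 143B median was -0.11 over genes averaging at least 50 counts. That of mitochondrial synthetases in 143B was -0.024 with DESeq2-type size factors. The most frequent combination was a higher value in 143B with a lower one in HOS, in 36 of the 70 (51.4%, beside 30.9% of protein-coding genes). GPT2, PSAT1 and ALDH1L2 took the opposite course, which 10 of the 70 shared (14.3%, beside 20.7% of protein-coding genes), among them SLC7A1 and GARS1. Protein-coding peaks within 500 bp of a gene end, given above, also ran mostly higher in 143B (72.5%) and seldom higher in HOS (18.3%). The part of peak position in the list shifts was not tested.

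In serine and one-carbon metabolism, 8 of 17 listed enzymes had a peak, PSAT1 and ALDH1L2 among them, with medians of -0.50 in 143B and 0.27 in HOS. PHGDH, which starts serine synthesis, held 1956 counts in 143B labelled sgNAT10 against 1051 in 143B NC, and 4207 in HOS labelled sgNAT10 against 2212 in HOS NC. Its shifts were 0.40 (0.29 to 0.51) and 0.58 (0.50 to 0.65). SHMT2, the mitochondrial enzyme that turns serine into glycine, held 337 against 100 counts in 143B and 552 against 315 in HOS, shifts of 1.25 (0.93 to 1.59) and 0.46 (0.26 to 0.66). PHGDH and SHMT2 were thus above NC in both lines, as ASNS was. MTHFD2 of mitochondrial folate metabolism had shifts of 0.13 in 143B and -0.49 in HOS.

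In proline, glutamate, aspartate and asparagine metabolism, 10 of 23 enzymes had a peak, with medians of 0.68 in 143B and -0.81 in HOS. GOT2, the mitochondrial aspartate aminotransferase, had shifts of 0.63 and -1.35, and glutamate dehydrogenase, GLUD1, 0.08 and -1.21. Ornithine decarboxylase, ODC1, had 0.88 and -0.86. ASS1, argininosuccinate synthetase, held 181 counts in 143B labelled sgNAT10 against 83 in 143B NC, and 814 in HOS labelled sgNAT10 against 102 in HOS NC, shifts of 0.62 (0.24 to 1.02) and 2.63 (2.35 to 2.96). Of 16 enzymes of cysteine, methionine and branched-chain metabolism, 8 had a peak, with medians of 0.86 and -0.58. CBS, cystathionine beta-synthase, was near 0 in both lines (0.04 and 0.07). The aminotransferases BCAT1 and BCAT2 had 0.89 and -0.40, and -1.28 and -0.59, and MAT2B had 0.64 and -0.87.

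Of 24 cytosolic tRNA synthetases and partners, 17 had a peak, AARS1 among them, with 12 higher in 143B (median 0.39) and 13 lower in HOS (median -0.35). Seryl-tRNA synthetase, SARS1, was higher in both, with 389 counts in 143B labelled sgNAT10 against 210 in 143B NC, and 912 in HOS labelled sgNAT10 against 415 in HOS NC, shifts of 0.39 and 0.78. TARS1 for threonine had -0.30 and -0.86, GARS1 for glycine -0.87 and 0.42, and YARS1 for tyrosine 0.03 and -0.09. Of 17 mitochondrial synthetases, 4 had a peak and all 4 were lower in HOS (median -0.57), with a median of 0.06 in 143B. They were WARS2 (-0.00088 in 143B and -0.55 in HOS), LARS2 (0.12 and -1.42), IARS2 (-0.06 and -0.59) and FARS2 (0.24 and -0.0019).

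Of 12 amino acid transporters, 9 had a peak, with medians of -0.55 in 143B and -0.50 in HOS. The glutamine transporters SLC38A2 and SLC1A5 were lower in both lines, with -0.45 and -1.74, and -0.55 and -1.65. The arginine and lysine transporter SLC7A1 had 24 peaks and shifts of -2.19 and 0.20, and the leucine transporter SLC7A5 had -0.36 and 0.12. Of 28 other ATF4 target and stress genes, ASNS among them, 10 had a peak, with medians of 0.24 and 0.09. ATF5, a related transcription factor, had -3.11 and -0.93, and DDIT4, an inhibitor of mTORC1, held 833 counts in HOS labelled sgNAT10 against 177 in HOS NC (1.88) and 29 against 21 in 143B (-0.03). SQSTM1, the autophagy receptor p62, had 1.18 and 0.12, and the transcription factor CEBPB -0.20 and 0.06. Of 19 genes of eIF2 signalling and translation control, 11 had a peak, with 7 higher in 143B (median 0.60) and 10 lower in HOS (median -0.48). EIF2S2, a subunit of eIF2, had 0.93 and -0.48, GCN1, which activates the kinase GCN2, 0.11 and -0.44, the kinase gene MTOR -0.92 and -0.19, and its partner RPTOR -0.88 and 0.57.

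**Figure D5:**
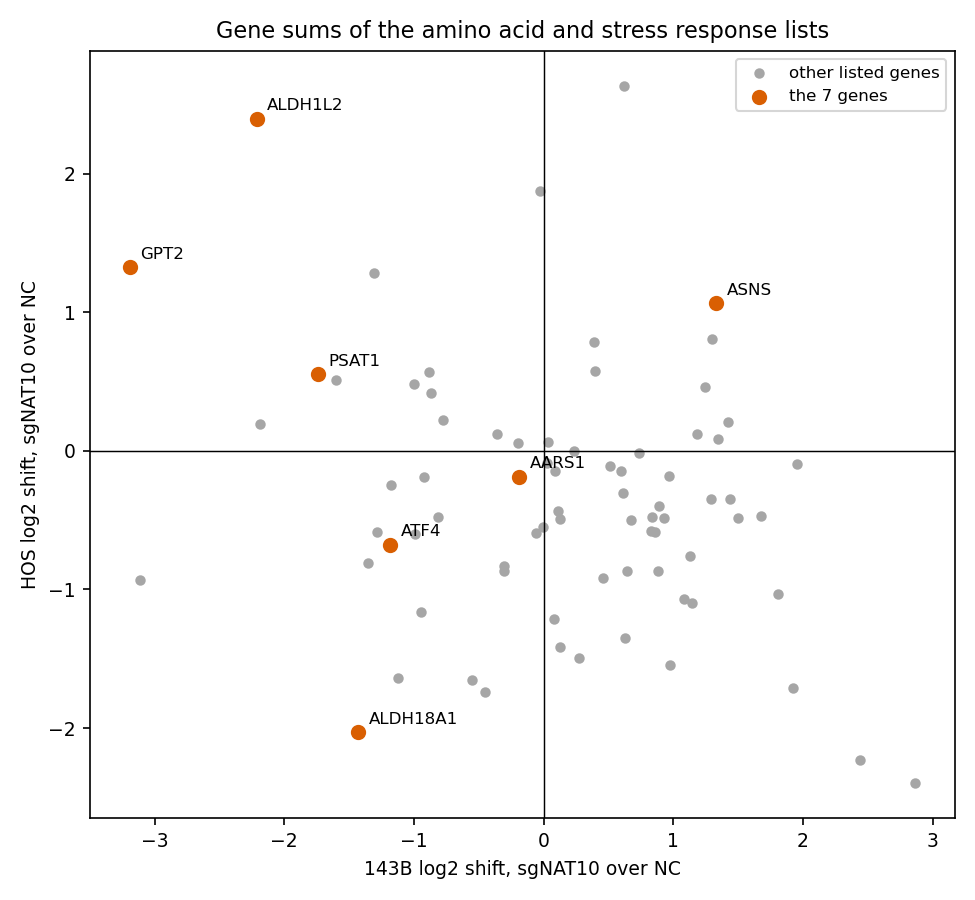
Log2 shift of the summed peaks of each listed gene in 143B (x axis) and HOS (y axis), sgNAT10 over NC, with the 7 genes in orange and the other listed genes in grey. ASNS lies in the upper right, ALDH18A1 in the lower left, and GPT2, PSAT1 and ALDH1L2 in the upper left, while most grey points lie in the lower right.

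Likeness to ASNS and to ATF4 was measured as the Euclidean distance between log2 CPM values centred over the 4 libraries, across 2801 protein-coding genes averaging at least 100 counts. Among the 5 genes nearest to ASNS were PPARG (distance 0.585), SHMT2 (0.745), TMEM150C (0.818) and SARS1 (0.890). The 5 nearest to ATF4 were SLC3A2 (0.185), APP (0.293), PCBP1 (0.293), MYC (0.328) and MARS1 (0.345). ASNS itself ranked 1687 by distance from ATF4, while AARS1 ranked 232 and PSAT1 244. SLC3A2, the heavy chain of several amino acid transporters, had shifts of -1.36 and -0.81, and MARS1, which charges tRNA with methionine, -0.82 and -0.47. With 4 libraries such nearness is a description of these libraries.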

How the data were processed

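The 4 acRIP libraries (143B and HOS, labelled sgNAT10 or NC) were used. The deposited values are raw counts per peak interval, whole numbers with no normalization, in 1 table per line over the same 31395 intervals. Columns name line and genotype but not the assay, and were taken as acRIP from the name of the tables, which calls them RIP. Per the submitters' processing notes, the build was GRCh38 and the tools were FastQC, STAR, SAMtools and deepTools. The peak caller, counting tool and strand setting are not given in the sources used here, nor whether starts count from 0 or 1, so positions are printed as deposited.

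A peak was assigned to the single protein-coding gene it overlapped in a RefSeq table (GRCh38.p14), readthrough genes set aside, or else to the single gene it overlapped. Rows of unplaced scaffolds were left out. This gave 19086 peaks in 9079 genes, and 682 peaks overlapped several genes and stayed unassigned. Strand came from the promoter table, which held none for GPT2 and ALDH1L2. Peaks were tested with edgeR 4.0.16 (filterByExpr with a minimum count of 10 and total of 15, TMM, quasi-likelihood, cell line as block, Benjamini-Hochberg, threshold 0.05) and with DESeq2 1.42.0 and limma 3.58.1 as alternatives. Shifts used a prior count of 1, and intervals came from exact conditional binomial bounds. No molecular identifiers are named in the labels, so reads can repeat 1 molecule and intervals cover counting error only. TMM factors were 0.731 to 1.26. The named pathway genes are the 4 per list with the highest mean CPM, the 7 left out, and the 5 genes nearest to ASNS and to ATF4. Some genes that this rule names are not reported here. Other scalings, prior counts, filters and a fit without the block were tried. Input libraries were not used here. The 7 genes and the lists were chosen with earlier results of these data known.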

Additional observations from a re-analysis of the deposited data

Results flagged for a closer look

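The shifts of ALDH1L2 and of 6 GPT2 peaks were at least 2-fold in opposite directions in the 2 lines. With 1 library per line and genotype, the difference between lines was not tested. ALDH1L2 had a log2 shift of 2.40 in HOS and -2.21 in 143B. In GPT2, peak 3 had 1.5 in HOS and -2.51 in 143B, peak 4 had 1.78 and -2.71, and peak 6 had 1.06 and -1.85. Peak 7 had 1.32 in HOS and -3.64 in 143B, peak 8 had 1.58 and -2.03, and peak 9 had 1.85 and -2.32. The 6 GPT2 peaks share 1 gene, and the 143B values rest on the library that stood apart from the others.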

How the results depend on the processing

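No paired analysis was possible because the labels carry no replicate numbers to pair by, apart from the pairing of genotypes within a line that the cell line block of the edgeR fit makes. No member peak was called by edgeR, DESeq2 or limma-trend, nor by edgeR with DESeq2-type size factors, upper quartile factors or library totals alone, without the filter, at a mean count of 100 or more (12 of the 21 peaks left) or without the cell line block, and 0 or 1 had an unadjusted p under 0.05. Over all peaks edgeR called 1 without a filter on low counts, and 0 in the other settings. The median HOS shift over the 21 peaks was 1.36 with library totals alone, against 0.78 with TMM. The 143B median ranged from -1.85 to -1.46 over the settings run. Of 42 peak shifts, 39 kept their sign under 4 other scalings and a prior count of 5. The first PSAT1 peak in HOS (0.36) and AARS1 in both lines (0.16 in 143B and 0.39 in HOS) changed sign with library totals alone, and AARS1 in 143B also with upper quartile factors (0.023). Relative to TMM, other scalings added -0.08 to 0.33 to every shift in 143B and -0.20 to 0.56 in HOS. The gene sum tests with DESeq2 and limma-trend were chosen after seeing the data. Low counts widen the intervals of the 9 narrower GPT2 peaks, with 3 to 36 counts in 143B labelled sgNAT10, and of ALDH1L2 (18) and ALDH18A1 (27 and 32).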
